A study of Homo sapiens with 6 samples.

Results

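The genes described here write, remove or read DNA methylation. They were chosen by symbol, as a set of 9 genes (DNMT1, DNMT3A, DNMT3B, UHRF1, TET1, TET2, TET3, MBD1 and MBD4) out of 23368 symbols in the deposited count table, and all 9 had enough reads to be tested. RNA was sequenced from HCT116 cells, an established human colon cancer line, treated with an siRNA against ADNP (siADNP, 3 libraries) or with a control siRNA (siControl, 3 libraries). ADNP is a zinc finger and homeodomain protein of chromatin. Both groups are the same cell line with no further treatment named, the labels give no time after transfection, and nothing in the labels gives the sequence or number of the siRNAs. The 3 libraries of a group are called biological replicates, without a statement that they came from separate cultures, and the p-values therefore reflect library-to-library spread that may in part be technical.

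DNA methylation in mammals sits mainly on cytosines of CpG dinucleotides. DNMT1 copies it to the new strand after replication, brought to hemimethylated sites by UHRF1, while DNMT3A and DNMT3B methylate sites that carried no mark. The TET enzymes oxidise methylcytosine, which opens a route back to cytosine through base excision repair or through dilution at replication. Proteins with a methyl-CpG-binding domain, such as MBD1, read the mark, and MBD4 also removes thymine or uracil mispaired within CpG sites. HCT116 cells are a standard line for the study of DNA methylation, and colon cancers are known for dense methylation of some CpG island promoters.

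The knockdown was visible in all libraries. ADNP stood at 46.7, 55.3 and 59.8 CPM (reads of the gene over all reads of tested genes, scaled to a fixed total) with siADNP, against 171, 155 and 167 CPM with siControl, and the groups did not overlap. Each siADNP library held 7396771 to 8726017 reads assigned to genes, and each siControl library 8282290 to 10265175. Of the epithelial markers, some were abundant, with EPCAM at means of 328 and 335 CPM and KRT8 at 1302 and 1297 CPM in siADNP and siControl cells. Others were low, with CDX2 at 8.49 and 7.41 CPM and CLDN3 at 6.52 and 2.59 CPM in siADNP and siControl cells. The intestinal marker VIL1 had 0 reads in every library. The 15 markers of fibroblasts, blood and endothelium summed to 18.2 to 20.3 CPM in siADNP libraries and 15.4 to 16.6 CPM in siControl libraries, and DCN, LUM, HBB and CDH5 had 0 reads. CD68, one of them, rose by 0.42 on the log2 scale (adjusted p = 0.0366, edgeR), a call that 8 of 15 alternative settings did not keep, including the fits without siADNP replicate 1, 2 or 3 (adjusted p = 0.0704, 0.0622 and 0.0832) or siControl replicate 2 or 3 (0.0901 and 0.114). COL1A1 did not pass (0.14, adjusted p = 0.552), and the part of these cells or markers in the results below was not tested.

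Of the 9 genes, DNMT1 rose, TET2 and TET3 fell, and the other 6 did not pass the test (unadjusted p of 0.152 to 0.889). The threshold was 0.05 for p adjusted over the 12489 genes tested by edgeR's quasi-likelihood method. Across these genes 28.3% were called, 14.6% higher and 13.7% lower, so 3 calls among 9 genes is close to the share among all genes. The groups did not overlap in 3 of the 9, against 40.8% of all tested genes. The median log2 fold change of the 9 was -0.01, and that of all tested genes was -0.0013. In RNA from bulk cells, fewer cells with a transcript and less transcript per cell cannot be told apart.

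A stretch upstream of a start site is shown for each of the 3 called genes. The stretches are taken from RefSeq's promoter table (build GRCh38.p14, newer than the build of the counts). They are written 5′ to 3′ on the strand of the gene, with each CG dinucleotide in capitals. Only the part that no annotated exon covers is printed. For a gene with several starts, the start with the longest such part was taken, and among equals that with the most CG. The CG content of the printed stretches therefore depends in part on this choice. The DNMT1 stretch is chr19:10195136-10195203 on the minus strand, and lies 182 bases upstream of the start. The TET2 stretch is chr4:105145625-105145874 and the TET3 stretch chr2:73984660-73984909, both on the plus strand and ending at the start.
DNMT1: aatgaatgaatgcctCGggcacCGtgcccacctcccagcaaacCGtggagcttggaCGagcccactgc
TET2: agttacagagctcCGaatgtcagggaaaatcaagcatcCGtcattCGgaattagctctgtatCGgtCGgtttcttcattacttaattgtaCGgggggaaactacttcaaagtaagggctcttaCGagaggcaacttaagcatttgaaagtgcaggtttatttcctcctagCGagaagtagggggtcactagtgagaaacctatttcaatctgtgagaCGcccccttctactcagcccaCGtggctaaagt
TET3: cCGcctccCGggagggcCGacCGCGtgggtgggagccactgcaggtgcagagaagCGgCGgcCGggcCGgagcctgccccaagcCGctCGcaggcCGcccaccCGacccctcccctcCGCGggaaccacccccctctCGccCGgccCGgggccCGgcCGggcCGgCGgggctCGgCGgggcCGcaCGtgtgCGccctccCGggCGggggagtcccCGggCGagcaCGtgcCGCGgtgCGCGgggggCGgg

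These stretches hold 4 CG in 68 bases for DNMT1, 10 CG in 250 bases for TET2 and 37 CG in 250 bases for TET3. RefSeq lists 20 starts for the 9 genes, all 9 of which were matched, and the 250 bases before these starts hold 3 to 41 CG with a median of 22.5, against a median of 11 over all 35116 starts in the table. Both genes that fell have a second start, with 34 CG before it for TET2 and 27 CG for TET3, and the full window of DNMT1 holds 21 CG. DNMT3B is the gene with the fewest, 3 CG, and UHRF1 the one with the most, 41 CG. DNMT3A alone supplies 6 of the 20 windows, and some windows of the same gene overlap. The windows are therefore not independent, and genes with more starts weigh more in the median and the counts. The E2F-like strings TTTCGCGC and TTTGGCGC, searched on both strands, occur in 1 of the 20 windows, a window of UHRF1, and in 0.968% of all windows. The string GGGCGG on either strand occurs in 11 of the 20 windows and in 42.6% of all windows, and CCAAT in 7 of 20 and in 32.01%. None of these strings occurs in the DNMT1 window, which says only that these letters are not there. The files do not show which start the cells use, and they hold no methylation data.

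DNMT1, the maintenance methyltransferase, was the most abundant of the 9 and the only one that rose. It stood at 506, 492 and 477 CPM with siADNP and at 329, 315 and 317 CPM with siControl. Every siADNP library lay above every siControl library. The group means were 492 ± 14.5 CPM with siADNP and 320 ± 7.64 CPM with siControl (SD, n = 3 each). The log2 fold change was 0.62 ± 0.05 (SE), a 1.54-fold rise with an adjusted p of 7.42e-13 in edgeR, which ranks 22 among all tested genes. Of the 366 tested genes at least as abundant, DNMT1 among them, 1 was called with a rise as large, and that 1 is DNMT1 itself. Among all tested genes, 439 were called with a rise at least as large. In a GENCODE annotation the exons of DNMT1 overlap those of S1PR2 on the same strand. S1PR2 had 418 reads in all with siADNP and 404 with siControl, with a log2 fold change of 0.24 that was not called (adjusted p = 0.115), and DNMT1 had 11809 and 8763 reads.

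**Figure D1:**
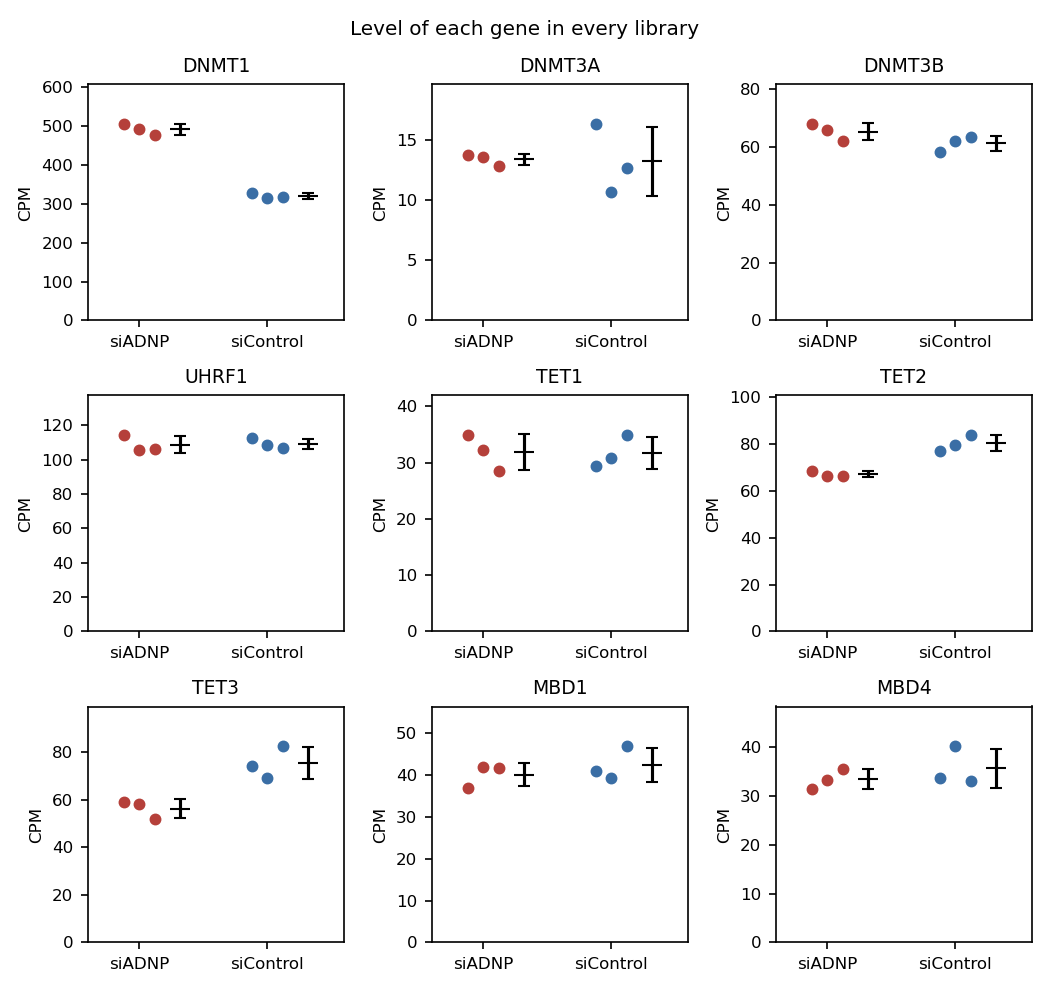
Level in CPM (linear axis from 0) of each of the 9 genes in the 3 siADNP libraries (red) and the 3 siControl libraries (blue), with the mean ± SD of each group in black beside the points. DNMT1 lies at 477 to 506 CPM with siADNP, above 315 to 329 CPM with siControl, TET2 and TET3 lie lower with siADNP, and the groups overlap in the other 6 genes.

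UHRF1, the ubiquitin ligase that brings DNMT1 to replicated DNA, did not follow it. It stood at 114, 105 and 106 CPM with siADNP and at 112, 109 and 107 CPM with siControl, and the groups overlapped fully. Its log2 fold change was -0.01 ± 0.06, with a 95% interval of -0.12 to 0.11 and an adjusted p of 0.933 in edgeR, so a change as large as that of DNMT1 lies outside the interval. The libraries held 4.42, 4.67 and 4.49 DNMT1 reads per UHRF1 read with siADNP and 2.93, 2.89 and 2.98 with siControl. The ratio needs no scaling between libraries, and its SD was 0.129 within the siADNP and 0.0415 within the siControl libraries.

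The de novo methyltransferases DNMT3A and DNMT3B did not pass. DNMT3B stood at 68.1, 66.0 and 62.1 CPM with siADNP and at 58.3, 62.0 and 63.5 CPM with siControl, with overlapping groups and a log2 fold change of 0.10 ± 0.07 (95% interval -0.04 to 0.23, adjusted p = 0.288, edgeR). DNMT3A was far less abundant, at 13.7, 13.6 and 12.9 CPM with siADNP and 16.4, 10.7 and 12.7 CPM with siControl. Its siControl libraries were spread more widely than its siADNP libraries, on 95 to 146 reads per library. The log2 fold change of DNMT3A was 0.03 ± 0.14, with a 95% interval of -0.25 to 0.30 that leaves moderate changes in either direction undetectable at this depth (adjusted p = 0.913, edgeR). Of all reads of the 3 methyltransferases, DNMT1 took 86.1%, 86.1% and 86.4% with siADNP and 81.5%, 81.2% and 80.6% with siControl. DNMT3B took 11.5 ± 0.185% with siADNP and 15.5 ± 0.946% with siControl (SD, n = 3 each), and its own level was not called. As DNMT1 holds most of these reads, the shares restate its rise. The summed level of the 3 was 571 ± 17.9 CPM with siADNP and 395 ± 8.23 CPM with siControl, a difference of 176 CPM, of which DNMT1 alone made up 172 CPM.

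**Figure D2:**
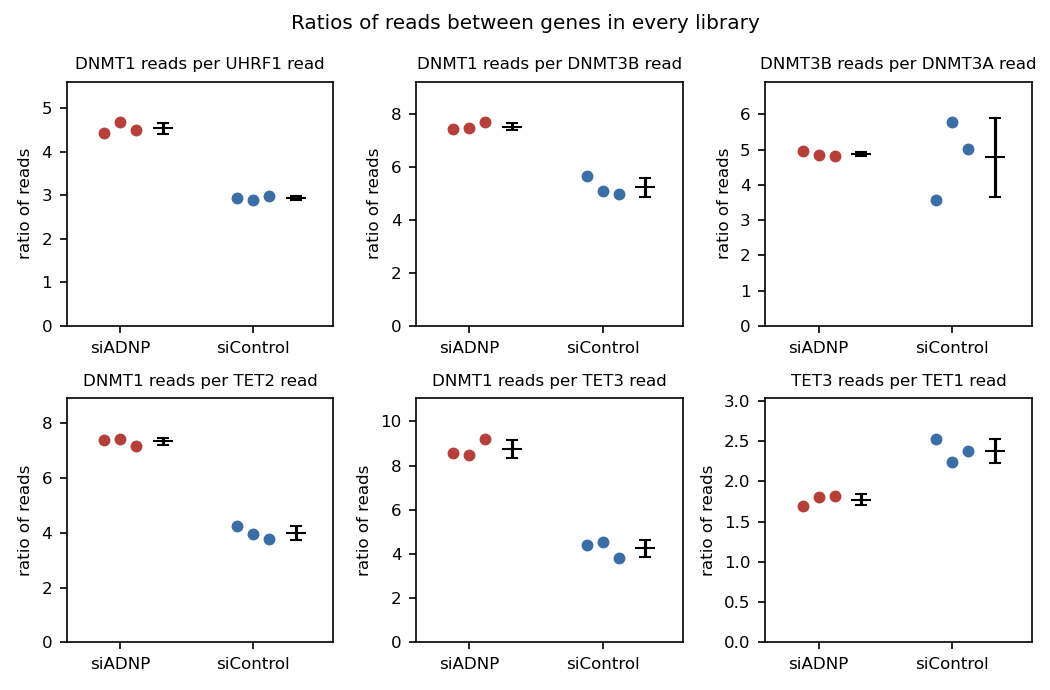
Ratio of read numbers between pairs of the genes in every library (linear axes from 0), siADNP in red and siControl in blue, with mean ± SD in black. The ratios of DNMT1 to UHRF1, DNMT3B, TET2 and TET3 are higher in each siADNP library than in any siControl library, the ratio of TET3 to TET1 is lower, and that of DNMT3B to DNMT3A overlaps.

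Among the TET dioxygenases, TET2 and TET3 fell and TET1 did not pass. TET3 stood at 59.1, 58.1 and 51.8 CPM with siADNP and at 74.3, 69.1 and 82.7 CPM with siControl. The highest siADNP library lay below the lowest siControl library, and the log2 fold change was -0.41 ± 0.07, or 75.0% of control, with an adjusted p of 2.06e-05 in edgeR. TET2 stood at 68.5, 66.1 and 66.4 CPM with siADNP and at 77.1, 79.7 and 83.9 CPM with siControl. Its groups did not overlap either, and its log2 fold change was -0.26 ± 0.06, or 83.6% of control (adjusted p = 0.0015, edgeR). Of the 3634 tested genes at least as abundant as TET3, itself among them, 53 were called with a fall at least as large. For TET2 the same count was 231 of 3247. Falls at least as large as that of TET3 were called in 359 tested genes and at least as large as that of TET2 in 967. TET2 therefore belongs to the many small called changes of this comparison, whose median absolute log2 fold change was 0.32.

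TET1, which carries a CXXC domain that binds unmethylated CpG, stood at 34.9, 32.2 and 28.5 CPM with siADNP and at 29.4, 30.9 and 34.8 CPM with siControl. The groups overlapped over almost their whole range, and its log2 fold change was 0.01 ± 0.09 (95% interval -0.17 to 0.19, adjusted p = 0.936, edgeR). The 3 genes together summed to 162, 156 and 147 CPM with siADNP and 181, 180 and 201 CPM with siControl, which is lower in each siADNP library. The share of TET3 in all TET reads was 36.3 ± 0.924% with siADNP and 40.2 ± 1.501% with siControl, and that of TET1 was 20.5 ± 1.05% and 16.9 ± 0.579% (SD, n = 3 each). The share of TET2 overlapped between the groups, at 43.2 ± 1.78% with siADNP and 42.9 ± 1.36% with siControl. Since DNMT1 was called higher and TET2 and TET3 lower, read ratios between them restate those calls. The shares of TET reads likewise depend on the falls of TET2 and TET3. The writers DNMT3A and DNMT3B and the eraser TET1 were not called. The libraries held 7.40, 7.44 and 7.19 DNMT1 reads per TET2 read with siADNP and 4.26, 3.95 and 3.78 with siControl. For TET3 these ratios were 8.57, 8.47 and 9.22 with siADNP and 4.43, 4.55 and 3.83 with siControl. These are ratios of RNA and say nothing of protein, enzyme activity or methylation.

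The readers MBD1 and MBD4 did not pass. MBD1, a repressor that binds methylated CpG, stood at 36.9, 41.9 and 41.6 CPM with siADNP and 41.0, 39.2 and 47.0 CPM with siControl, with a log2 fold change of -0.07 ± 0.08 (95% interval -0.24 to 0.09, adjusted p = 0.523, edgeR). MBD4, the CpG-specific thymine glycosylase, stood at 31.3, 33.3 and 35.5 CPM with siADNP and 33.6, 40.2 and 33.0 CPM with siControl, with a log2 fold change of -0.10 ± 0.09 (95% interval -0.28 to 0.07, adjusted p = 0.400, edgeR). The groups overlapped in both genes. Exons of MBD4 overlap those of IFT122 on the opposite strand in the GENCODE annotation, and whether reads were counted by strand is not known. IFT122 had 606 reads with siADNP and 674 with siControl, against 800 and 983 for MBD4.

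**Figure D3:**
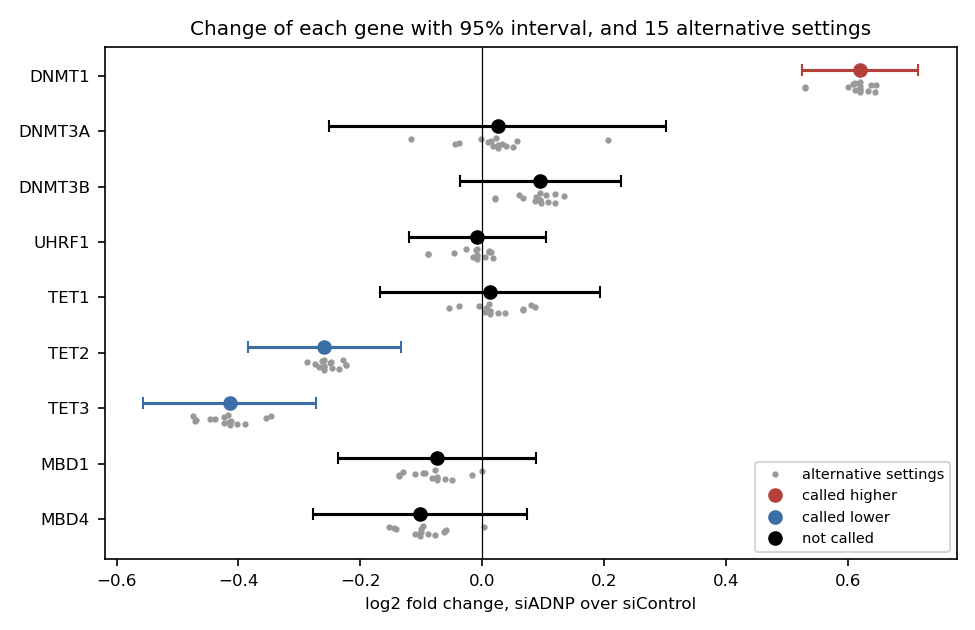
Log2 fold change of siADNP over siControl for each of the 9 genes, as the fitted value with its 95% interval (red called higher, blue called lower, black not called) and, below it, the value under each of 15 alternative settings (grey). The intervals of DNMT1, TET2 and TET3 lie clear of 0 and so do all their grey points, while the 6 other intervals include 0.

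Per kilobase of the longest annotated transcript, the mean levels of the 9 genes with siADNP ran from DNMT1 (91.0 CPM per kb) through UHRF1 (25.2), DNMT3B (15.1), MBD4 (13.5), MBD1 (8.18), TET2 (6.59), TET3 (4.95) and TET1 (3.43) down to DNMT3A (1.41). With siControl the same scale gave DNMT1 59.2 CPM per kb, UHRF1 25.4, MBD4 14.4, DNMT3B 14.1, MBD1 8.65, TET2 7.89, TET3 6.62, TET1 3.41 and DNMT3A 1.39. The neighbours DNMT3B and MBD4 overlapped in both groups and changed places between them. MBD1 and TET2 overlapped with siControl, at 8.001 to 9.59 and 7.59 to 8.25 CPM per kb, but not with siADNP, at 7.51 to 8.54 and 6.51 to 6.73. All other neighbours were separate in both groups. The scale assumes that the longest transcript is the one expressed. By mean CPM, DNMT1 lay above 97.1% of tested genes and DNMT3A above 29.8%.

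The composition of the transcripts moved with the direction of change across all genes. The median GC content was 54.0% over genes that rose, 43.0% over genes that fell and 48.6% over genes that were not called. DNMT1 has a GC content of 55.4%, TET2 43.0% and TET3 52.3%. With an offset for GC content in each library, the log2 fold change of DNMT1 was 0.53, that of TET2 -0.22 and that of TET3 -0.47, and all 3 were still called.

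Genes that act with the methyltransferases were called in both directions, at about the share of all genes. Of 14 tested cofactors of maintenance and de novo methylation, 2 rose, 2 fell and 10 did not pass, against 28.3% called of all tested genes, with a median log2 fold change of -0.04. An offset for the GC content of the transcripts gave 1 rise and 1 fall, and the fit without siADNP replicate 3 gave 3 rises and 1 fall. EHMT2, a histone H3 lysine 9 methyltransferase, rose with 0.24 ± 0.05 (130 ± 2.46 CPM with siADNP and 110 ± 1.67 CPM with siControl; SD, n = 3 each; adjusted p = 0.000689, edgeR), but not with the GC offset (0.10, adjusted p = 0.161). HELLS, a chromatin remodeller needed for methylation of repeats, rose with 0.165, although its groups overlapped. PCNA, the replication clamp that DNMT1 binds, fell with -0.18 (adjusted p = 0.00369, edgeR) and UHRF2, the paralogue of UHRF1, with -0.20. The call of HELLS (adjusted p = 0.0296) was lost without siADNP replicate 1 (0.106) or 2 (0.0933), without siControl replicate 1 (0.0510) or 2 (0.282) and in DESeq2's Wald test (0.0920). The call of UHRF2 (adjusted p = 0.0452) was lost in 10 of 15 alternatives, among them the fits without siADNP replicate 1 (0.109) or 3 (0.160) and without siControl replicate 2 (0.105) or 3 (0.165). DNMT3L, the catalytically inactive partner of the de novo enzymes, had 1 read in all with siADNP and 0 with siControl.

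S phase genes are set beside these results because DNMT1 and UHRF1 act at replication forks. Among 25 S phase genes, all tested, there were 3 rises, 4 falls and 18 without a call, against 28.3% called of all tested genes. Their median log2 fold change was -0.01. The summed levels were 4696 to 4869 CPM with siADNP and 4771 to 4972 CPM with siControl, which overlap. The cyclin CCNE2 had the largest fall, -0.655 ± 0.091 (adjusted p = 7.61e-07, edgeR). The phosphatase CDC25A fell with -0.35, and the ribonucleotide reductase subunits RRM2 and RRM1 with -0.25 and -0.24. The members that rose were CHAF1A, a subunit of the histone chaperone CAF-1, GINS1 of the replicative helicase and the thymidylate synthase TYMS, with 0.22, 0.29 and 0.19. CHAF1A was not called with the GC offset, alone (adjusted p = 0.137) or with the replicate block (0.171), and GINS1 not without siControl replicate 2 (0.0535). TYMS, whose groups overlapped, was not called without siADNP replicate 2 (0.118) or siControl replicate 2 (0.136). Nor was TYMS called with GC offset and replicate block (0.0696) or in DESeq2's Wald test (0.0521). The list had 2 rises and 7 falls with the GC offset, and with GC offset and replicate block 1 rise and 7 falls. The part of these changes in the rise of DNMT1 was not tested.

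In the pathway that completes demethylation the calls were again near the share of all genes. Of 15 tested genes of demethylation and base excision repair, 2 rose, 3 fell and 10 did not pass, against 28.3% called of all tested genes, with a median of -0.03. With the GC offset, alone or with the replicate block, the list had 1 rise and 5 falls. TDG, the glycosylase that excises the oxidised bases made by TET enzymes, fell with -0.47 ± 0.09, to 26.5 ± 2.59 CPM with siADNP, against 37.0 ± 1.94 CPM with siControl (SD, n = 3 each; adjusted p = 7.11e-05, edgeR). SMUG1, a uracil glycosylase, fell with -0.41 ± 0.09 (adjusted p = 0.000886, edgeR) and NEIL1, which excises oxidised bases, with -0.44 on 5.71 CPM with siADNP and 7.83 CPM with siControl (adjusted p = 0.0464), which was not called in 9 of 15 alternatives, among them the fits without siADNP replicate 1 (0.125) or 3 (0.128) and without siControl replicate 1 (0.0692), 2 (0.0858) or 3 (0.132). IDH1 makes the 2-oxoglutarate that TET enzymes use, and it rose with 0.48 ± 0.05, to 184 ± 8.05 CPM with siADNP, against 132 ± 4.17 CPM with siControl (SD, n = 3 each; adjusted p = 6.38e-09, edgeR). The uracil glycosylase UNG rose with 0.16 (adjusted p = 0.0417), a call lost in 8 of 15 alternatives, among them the fits without siADNP replicate 2 (0.157) and without siControl replicate 1 (0.140) or 2 (0.147).

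The list of other readers of methylated or unmethylated CpG gave 0 rises, 2 falls and 13 that did not pass among 15 tested in edgeR. Its median was 0.02. Whether each listed protein itself binds CpG was not tested. Of all tested genes, 28.3% were called. DESeq2's Wald test gave 0 rises and 1 fall. At an unadjusted p under 0.05 in edgeR the list had 3 rises and 2 falls. Such p-values were common, as an unadjusted p of 0.0487 in edgeR ranked 4783 among the 12489 tested genes. ZBTB38, a zinc finger protein that binds methylated DNA, fell with -0.23 ± 0.06 (adjusted p = 0.00386, edgeR). Without siADNP replicate 1 or 3, or without siControl replicate 1 or 3, the list had 1 fall. MBD5 had a log2 fold change of 0.31 that missed the threshold (adjusted p = 0.0579) and passed it in 5 alternatives, among them the GC offset (0.0261) and the fit without siControl replicate 1 (0.0203). CXXC5 had 0.25 (adjusted p = 0.105), and passed without siADNP replicate 3 (0.0437). With upper-quartile scaling the count of the list was 1 rise and 1 fall, and with the GC offset 1 rise and 3 falls.

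The methyl donor cycle supplies S-adenosylmethionine to the methyltransferases. Of 10 tested genes, 0 rose, 3 fell and 7 did not pass in edgeR, against 28.3% called of all tested genes, with a median of -0.03. DESeq2's Wald test gave 0 rises and 1 fall. At an unadjusted p under 0.05 in edgeR there were 1 rise and 3 falls, where a p of 0.0487 ranked 4783 among the 12489 tested genes. The count was 2 rises and 2 falls with the GC offset, 1 rise and 1 fall with upper-quartile scaling or library totals, and 0 rises and 1 fall with the replicate block. MAT2A, which makes S-adenosylmethionine, fell with -0.215 ± 0.047 (adjusted p = 0.000594, edgeR). It stood at 597 ± 15.8 CPM with siADNP, against 693 ± 30.3 CPM with siControl (SD, n = 3 each). ADK, which clears adenosine, and AHCYL1, related in sequence to the hydrolase AHCY, fell with -0.164 and -0.145. Their calls (adjusted p = 0.0413 and 0.0473) were lost in 10 and 9 of 15 alternatives. For ADK these included the fits without siADNP replicate 1 (0.206) and without siControl replicate 1 (0.124), 2 (0.0527) or 3 (0.0989). For AHCYL1 they included the fits without siADNP replicate 1 (0.273) or 3 (0.0642) and without siControl replicate 1 (0.0970), 2 (0.173) or 3 (0.0576). AHCYL2 had 0.18 and missed the threshold (adjusted p = 0.0606), but passed without siADNP replicate 1 (0.0396) or siControl replicate 1 (0.0491) and with upper-quartile scaling (0.0324) or library totals (0.0467).

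**Figure D4:**
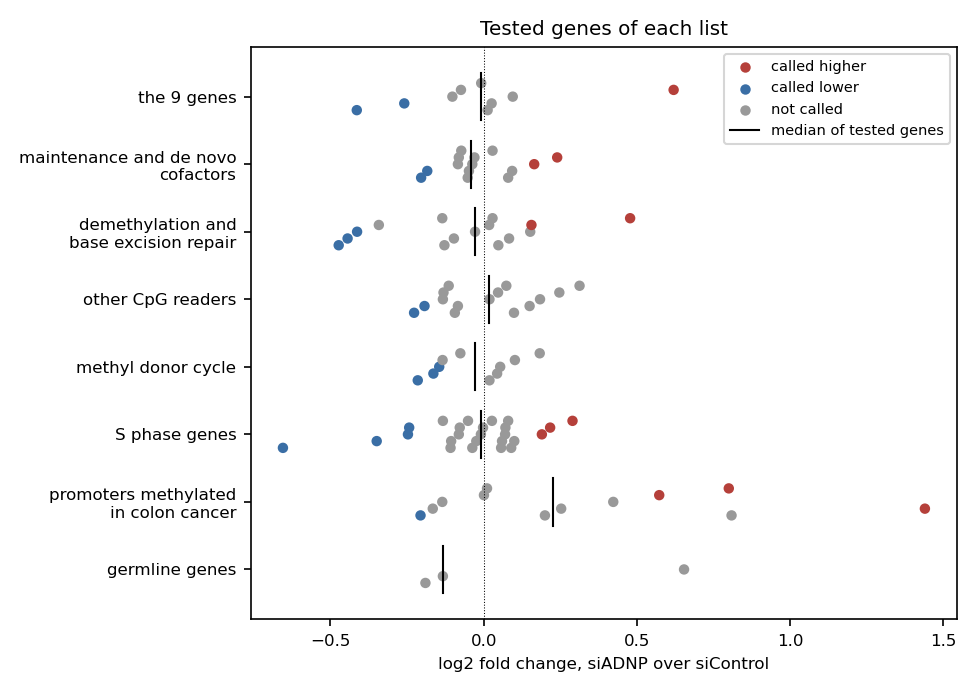
Log2 fold change of siADNP over siControl for the tested genes of each list (points, red called higher, blue called lower, grey not called), with the median of each list as a black line. Calls in both directions appear among the 9 genes, the cofactors, the demethylation genes, the S phase genes and the genes with promoters methylated in colon cancer, DNMT1 lies at 0.62, and the largest value shown is that of NDRG4, 1.44.

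The genes whose levels followed DNMT1 most closely over the 6 libraries, among tested genes of at least 5 CPM, were TNS4, CACHD1 and LSR, with Pearson correlations of log2 CPM of 0.999, 0.998 and 0.997. The 6 libraries form 2 groups, so the correlation mostly reflects the difference between them, and it is given as a measure of likeness only. TNS4, a tensin of focal adhesions, stood at 136 ± 4.11 CPM with siADNP and 65.3 ± 2.70 CPM with siControl, and CACHD1, related to calcium channel subunits, at 28.9 ± 0.552 and 18.5 ± 0.0848 CPM (SD, n = 3 each). LSR, a lipoprotein receptor of tricellular junctions, had a log2 fold change of 0.18, and 0.01 with the GC offset, where its call ended (adjusted p = 0.870).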

How the data were processed

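RNA of 3 siADNP and 3 siControl samples of HCT116 cells was sequenced with a Nugen kit that starts from total RNA, per the labels' protocols. The authors deposited raw counts of reads per gene symbol; per the submitters' processing notes the tools were STAR, HTSeq and DESeq2 on build hg19. Neither names the annotation or the strand setting. Lines that name no gene (no feature, ambiguous 0.455% to 0.500% of reads, not uniquely aligned 17.4% to 17.9%) were left out. Reads of no feature made up 54.4% to 55.7% with siADNP and 53.5% to 54.3% with siControl. Reads assigned to genes made up 26.4% to 27.2% with siADNP and 27.7% to 28.3% with siControl. The groups did not overlap in either share, and the part of this difference in the results was not tested. The deposited variance-stabilized table was not used. A gene of the CpG reader list is counted with its list, and its own result is not reported here.

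The test was edgeR 4.0.16 (R 4.3.3; TMM, filterByExpr with minimum count 10, glmQLFit, glmQLFTest, siADNP minus siControl, two-sided, Benjamini-Hochberg over all 12489 tested genes), after a check on simulated counts. The SE is the absolute log2 fold change over the square root of the F statistic. CPM use TMM-scaled totals. The 15 alternatives covered scaling, filters, DESeq2 1.42.0, a replicate block, a GC offset (GC content for 90.0% of tested genes, GENCODE release 29) and each library left out. Genes named are the 9 members, ADNP, up to 4 genes with the smallest p in each list and the 3 most like the member with the smallest p. CHAF1A, GINS1, TYMS, NEIL1, DNMT3L, EPCAM, KRT8, VIL1, CDX2, DCN, LUM, HBB, CDH5, S1PR2 and IFT122 were named after their values were seen. In the closing section this also holds for SFRP1, GATA5 and DAZL. The 9 members and all lists were chosen with earlier results of these data known. Figures were drawn with matplotlib 3.10.9.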

Additional observations from a re-analysis of the deposited data

How the results depend on the processing

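The calls and directions of DNMT1, TET2 and TET3 held in all 15 alternatives. Their log2 fold changes were 0.53 to 0.65 for DNMT1, -0.29 to -0.22 for TET2 and -0.47 to -0.35 for TET3. None of the other 6 genes was called in any alternative. Over all genes the count of rises was 1243 in DESeq2's Wald test and 2096 with upper-quartile scaling, against 1824, and that of falls 1160 and 1379, against 1714; falls outnumbered rises with the GC offset (1558 rises, 1845 falls; 1443 and 1687 with the block) and with no filter on low counts (1761 and 1793); leaving out 1 library gave 1470 to 1655 rises and 1307 to 1508 falls. With the replicate block 1694 genes rose and 1542 fell. Same-numbered libraries did not deviate together (correlations 0.0238, -0.0352 and -0.029), and the siADNP libraries did not each correlate best with their own number. These values show no pairing by number. With 3 libraries per group and correlations this small, they cannot exclude that same-numbered samples were prepared together. Uncalled values changed sign in some settings, and the cause was not tested: DNMT3A with the GC offset (-0.045), the GC offset with the replicate block (-0.0386), without siControl replicate 2 (-0.1173) or 3 (-0.0017), with 0.2064 as the highest value with 1 library left out; UHRF1 with upper-quartile scaling (0.0167), library totals (0.0046) and without siADNP replicate 2 (0.0148) or 3 (0.0114) or siControl replicate 1 (0.0113), down to -0.0459 with 1 library left out; TET1 without siADNP replicate 1 (-0.0549) or siControl replicate 1 (-0.0384) or 2 (-0.0055), up to 0.0872; MBD1 without siControl replicate 3 (0.0004), down to -0.1297; MBD4 without siControl replicate 2 (0.0015), down to -0.1532; and COL1A1 with the GC offset and replicate block (-0.002) or without siADNP replicate 2 (-0.0537), up to 0.2348. Over the 51 genes followed, 645 of the repeated values kept direction and call, 89 lost the call and 15 gained it; of the repeated counts per list, 194 stayed within 1.5 times and 76 did not, where every list count was 7 or fewer. Depth limits DNMT3A most, with 95 to 146 reads per library.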

Other observations

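Promoters known to be methylated in colon cancer and germline genes known to be silenced by methylation were read as possible targets. Of 32 genes of the first list, 31 were found by symbol in the deposited counts and 12 were tested. Of these 12, 3 rose, 1 fell and 8 did not pass, against 28.3% called of all tested genes, with a median log2 fold change of 0.23. Without siControl replicate 3 the list had 5 rises. RASSF2, a Ras association domain protein, rose with 0.80 ± 0.10, to 30.2 ± 1.77 CPM with siADNP, against 17.4 ± 0.435 CPM with siControl, and NDRG4 with 1.44 ± 0.22, to 6.18 ± 0.259 CPM, against 2.28 ± 0.235 CPM (SD, n = 3 each; adjusted p = 4.51e-08 and 4.11e-06, edgeR). Both were called in all 15 alternatives. Methylation of the listed promoters was not measured in these cells, and its part in these changes was not tested. The metalloproteinase inhibitor TIMP3 rose with 0.57 (adjusted p = 0.0165), but not without siADNP replicate 2 (0.0902), siControl replicate 1 (0.0578) or siControl replicate 2 (0.0697), nor in DESeq2's Wald test (0.0775). APC fell with -0.21 (adjusted p = 0.00386, edgeR), and missed the threshold when GC offset and replicate block were combined (0.0562). Another 12 of the listed genes, SFRP1 and GATA5 among them, had 0 reads in every library of both groups.

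Of 30 germline genes, 3 were tested and 0 were called by edgeR or by DESeq2's Wald test, against 28.3% called of all tested genes in edgeR. All 3 had an unadjusted p under 0.05 in edgeR, where a p of 0.0487 ranked 4783 among the 12489 tested genes. MAGEA3 and MAGEB2, cancer-testis genes that HCT116 cells express, had log2 fold changes of -0.19 and -0.13 (adjusted p = 0.0737 and 0.0770), and MAGEA6 had 0.65 (adjusted p = 0.0952). MAGEA3 and MAGEA6 are nearly identical in sequence, so how reads were split between them is uncertain. MAGEA3 passed after correction for GC content (0.0194 alone, 0.0264 combined with the block) and MAGEB2 without siADNP replicate 3 (0.0470). The other 27 genes together had 21 reads with siADNP and 22 with siControl, and 17 of the 30 had none. DAZL had 1 read with siADNP and 2 with siControl.

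Of the epithelial markers, 2 rose, 1 fell and 6 did not pass among 9 tested, against 28.3% called of all tested genes. CLDN3 rose with 1.31 (adjusted p = 1.85e-05, edgeR). CLDN4 rose with 0.25 and KRT19 fell with -0.15, but CLDN4 was not called without siControl replicate 1 (0.0510), with the GC offset (0.14, adjusted p = 0.134) or with GC offset and replicate block (0.151), and KRT19 not without siADNP replicate 2 (0.0726) or 3 (0.0858) or siControl replicate 2 (0.123) or 3 (0.0656). CDH1 had 0.16 (adjusted p = 0.0688) and passed without siControl replicate 1 (0.0471).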
